A study of Mus musculus with 3 samples.

Results

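Sialyltransferases and the enzymes that build selectin ligands were read in sorted mouse CD8+ T cells through 10 genes: St8sia1, St8sia4, St8sia6, St3gal1, St3gal4, St3gal6, St6gal1, Gcnt1, Fut7 and Selplg. The members were every probe set, that is every group of array probes designed for one transcript, whose platform annotation names exactly 1 gene symbol from this set. All 10 genes were found, with 22 probe sets, among 18193 genes with 34945 such probe sets. RNA was hybridised to 3 Affymetrix mouse 430 2.0 arrays, 1 for each group. The first group was NK1.1+ CD8+ T cells, and the second NK1.1− CD8+ T cells, both sorted from Tgfbr2fl/fl x CD4-Cre mice (KO) aged 15 to 17 days. The third was CD8+ T cells of Tgfbr2fl/wt x CD4-Cre littermates (control), described as NK1.1− in the sample title and as total CD8+ cells elsewhere in the labels. All 3 groups therefore carried Cre driven by Cd4, which deletes floxed genes in developing T cells, and at least 1 floxed copy of Tgfbr2, the gene of the type II receptor for transforming growth factor β. The number of mice pooled per sample is not stated in the labels.

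Sialyltransferases are Golgi enzymes that cap the sugar chains of glycoproteins and glycolipids with sialic acid. On T cells this cap changes with activation: naive CD8+ T cells carry heavily sialylated chains, while effector cells branch their O-linked chains through the enzyme encoded by Gcnt1. A branched chain that is then sialylated and fucosylated becomes a ligand of P-selectin and E-selectin, which lets the cell roll on inflamed vessels, and its main carrier on T cells is the protein encoded by Selplg, PSGL-1.

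Values are deposited intensities on a linear scale. The level for a measured value was 11.5, the 95th percentile of 148 probe sets of gene families such as olfactory receptors that T cells are not known to use. Lower values were set to this level first, so a difference with one side below the level is a lower bound, written "at least". A gene was represented by its probe set with the highest mean on the log2 scale, and was called higher or lower at a difference of 2-fold. With 1 array per group no spread between mice can be estimated, no test was made, and no neighbouring pair in any order of the 3 arrays can be said to differ beyond its spread. In bulk RNA such as this, fewer cells of a type and less RNA per cell cannot be told apart.

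The arrays differed in ways that touch every comparison. Actb read 6.02 times higher by its 3′ than by its 5′ probe set in control, 12.3 times in NK1.1− KO and 81.9 times in NK1.1+ KO cells. Gapdh ordered the groups differently, at 17.8, 26.7 and 10.8 times, with the NK1.1+ subset lowest. The hybridisation controls, read by 7 probe sets, gave 2.55 times the control array's signal for the NK1.1+ KO subset. Probe sets of one gene spread around their gene's log2 difference with a pooled SD of 0.46 when the NK1.1− subset was set against control, 0.89 for the NK1.1+ subset and 0.79 when the subsets were set against each other. The brightest probe set of the targeted gene Tgfbr2 read 2634, 1271 and 1808 in control, NK1.1− KO and NK1.1+ KO cells, and whether it lies in the deleted part is not stated in the labels. All 12 T cell markers on the array were measured in each group, with summed intensities of 17344 in control, 12354 in NK1.1− KO and 5737 in NK1.1+ KO cells.

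Promoter sequences are shown first for St8sia6 and St8sia1, the members called lower in both KO subsets, and for Gcnt1, the only member called higher. Of the 10 genes, 8 matched the RefSeq promoter table of build GRCm38.p6, which gives 250 bases before to 50 bases after an annotated start, written 5′ to 3′ in the direction of the gene. The St8sia6 window is chr2:13793471-13793770 on the minus strand, the St8sia1 window chr6:142964403-142964702 on the minus strand, and the Gcnt1 window chr19:17356618-17356917 on the minus strand, the second of 3 Gcnt1 windows. Capitals mark matches, on either strand, to the motifs searched.
St8sia6: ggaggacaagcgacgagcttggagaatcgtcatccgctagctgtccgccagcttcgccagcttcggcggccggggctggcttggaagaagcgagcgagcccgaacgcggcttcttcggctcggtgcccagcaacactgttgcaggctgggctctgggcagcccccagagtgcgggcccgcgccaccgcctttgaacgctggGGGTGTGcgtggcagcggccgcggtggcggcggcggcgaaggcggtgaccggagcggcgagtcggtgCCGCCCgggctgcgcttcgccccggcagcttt
St8sia1: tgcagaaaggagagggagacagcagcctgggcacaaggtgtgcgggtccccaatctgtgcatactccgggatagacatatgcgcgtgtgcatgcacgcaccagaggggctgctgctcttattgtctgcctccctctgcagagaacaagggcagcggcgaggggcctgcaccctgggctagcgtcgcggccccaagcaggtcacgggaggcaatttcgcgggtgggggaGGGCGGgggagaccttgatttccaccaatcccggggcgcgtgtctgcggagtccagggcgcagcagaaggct
Gcnt1: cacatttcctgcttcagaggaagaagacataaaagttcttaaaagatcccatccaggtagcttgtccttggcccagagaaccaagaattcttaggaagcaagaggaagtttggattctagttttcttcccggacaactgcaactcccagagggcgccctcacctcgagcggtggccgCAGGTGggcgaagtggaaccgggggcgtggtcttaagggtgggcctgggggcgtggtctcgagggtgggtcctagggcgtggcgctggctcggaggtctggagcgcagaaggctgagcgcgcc
In the St8sia6 window the first capitals are GGGTGTG, the letters searched for KLF factors, starting at position -49 from the annotated start, and the second are a GC box, GGGCGG, read on the other strand. In all, 7.95% of the 32851 promoter windows in the table hold the KLF letters and 35.7% the GC box. The capitals in the St8sia1 window are a GC box, which windows of St8sia4, St3gal4, St3gal6, St6gal1 and Fut7 hold too. Those in the Gcnt1 window are the E-box CAGGTG, which ZEB factors bind and which 20.2% of all windows hold. The T-box core GGTGTGA, held by 3.98% of windows and overlapping the KLF letters in 6 bases, and the SMAD letters GTCTAGAC, held by 0.213%, were found in none of the 14 windows of the 8 genes, which says only that these letters are not in those windows. Further letters searched were ACCGGAAGT for ETS factors (1.096% of windows), TGGAAAAA for NFAT (1.89%) and TGANTCA for AP-1 (7.81%). Of these, the NFAT letters were in 1 window of St3gal6 and the AP-1 letters in 1 window of St6gal1. The windows of St8sia6 and St8sia1 hold 39 and 19 CpG pairs, against a median of 7 over all windows. This is not particular to them. Windows of St3gal4, St8sia4, St3gal6 and Gcnt1 hold 31, 22, 20 and 16, and the remaining member windows 1 to 10.

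Of the 10 genes, 8 were measured on at least 1 array, by 16 of the 22 probe sets, and 9 probe sets were measured on all 3 arrays. Among the NK1.1− cells 2 members were called lower than control and 0 higher, beside 5.63% of the 9511 genes tested called lower and 8.21% called higher. For the NK1.1+ subset 4 members were called lower and 1 higher, beside 23.4% of 9967 genes called lower and 9.66% higher. Between the KO subsets 2 members were lower in NK1.1+ than in NK1.1− cells and 0 higher, where 21.7% of 9935 genes were lower and 6.26% higher. The median log2 difference of the 8 tested members was -0.45 in NK1.1− KO cells (0.011 over all genes), -0.68 in NK1.1+ KO cells (-0.22) and -0.17 between the KO subsets (-0.29). The comparisons with control share 1 control array. No array held sorted NK1.1+ control cells, so in NK1.1+ KO against control, genotype and sorting for NK1.1 cannot be told apart.

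**Figure D1:**
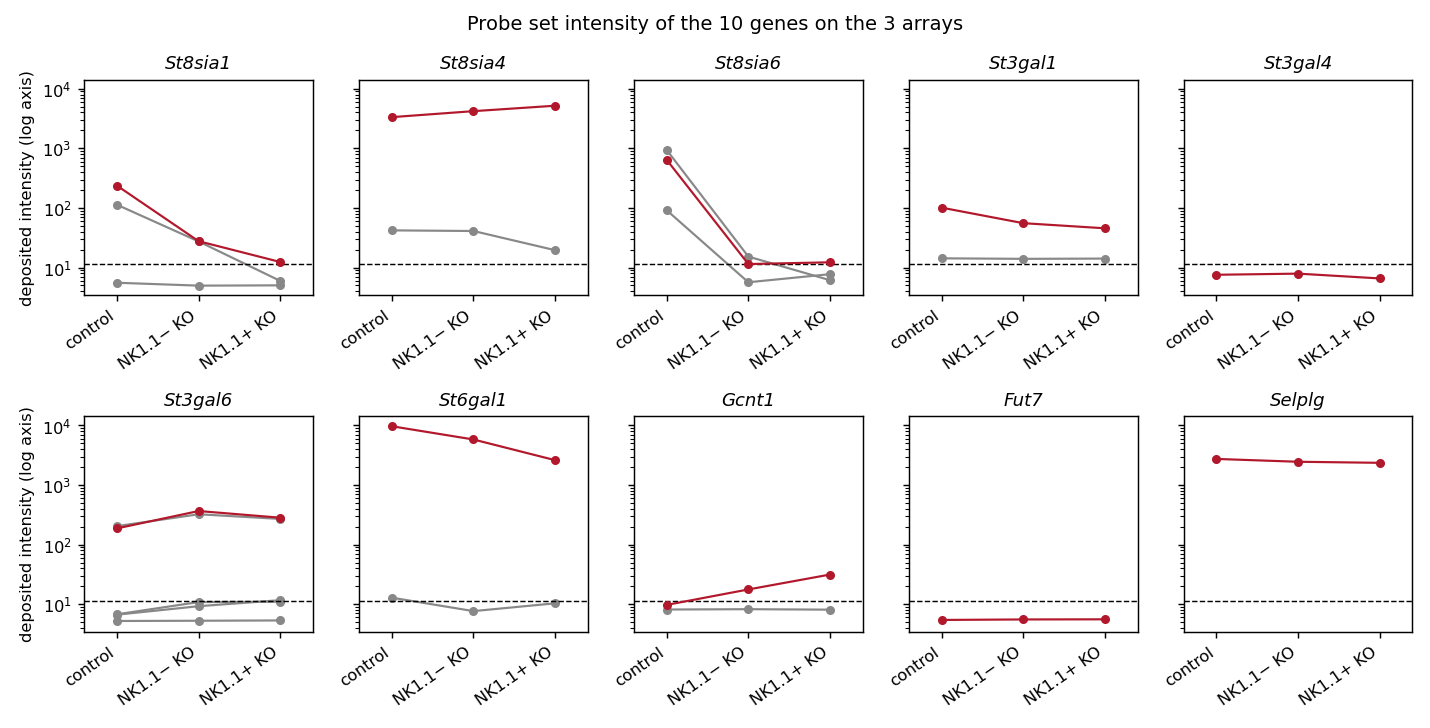
Deposited intensity (log axis) of every probe set of the 10 genes on the control, NK1.1− KO and NK1.1+ KO arrays, 1 array each. Red marks the probe set that stands for the gene, grey the others, lines join the same probe set and the dashed line is the level of 11.5. St8sia6 falls from 644 in control cells to near the level in both KO subsets, while St3gal4 and Fut7 lie below the level throughout.

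The St8sia genes encode enzymes of disialic and polysialic acid. Among the members, St8sia6 and St8sia1 held the largest differences from control, while St8sia4 was called in neither KO subset. St8sia6, which adds a further sialic acid to sialylated O-linked chains, read 644 in control cells, 11.4 in NK1.1− KO cells and 12.2 in NK1.1+ KO cells, by probe set 1456147_at. Only the control array was clearly above the level, so the transcript was near the detection limit in both KO subsets. St8sia6 was at least 56.1-fold lower in NK1.1− KO than in littermate cells (log2 difference -5.81), the lowest of the 9511 genes tested. In NK1.1+ KO cells it was 52.6-fold lower (-5.72), at rank 4 from the lowest of 9967 genes. The other probe sets of St8sia6 went the same way. Probe set 1456440_s_at read 942, 15.3 and 6.12 in control, NK1.1− KO and NK1.1+ KO cells, 61.8-fold lower in the NK1.1− and at least 82.2-fold lower in the NK1.1+ subset than in control. Probe set 1438566_at read 91.7, 5.65 and 7.73, at least 7.99-fold lower in each KO subset. The difference between the 2 KO subsets, a log2 difference of at least 0.093 by 1456147_at and of at least 0.41 in the opposite direction by 1456440_s_at, has no settled direction.

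St8sia1 encodes GD3 synthase, which turns the ganglioside GM3 into GD3 on the cell surface. It read 237 in control cells, 27.7 in NK1.1− KO cells and 12.4 in NK1.1+ KO cells, by probe set 1455695_at. Control cells were high, NK1.1− KO cells low and NK1.1+ KO cells close to the level. St8sia1 was 8.57-fold lower in NK1.1− KO cells (log2 difference -3.10) and 19.2-fold lower in NK1.1+ KO cells (-4.26) than in control cells. A larger difference in either direction was seen in 0.694% of the genes tested in the first comparison and in 0.672% in the second. A further probe set, 1419695_at, read 113, 27.4 and 5.96, which is at least 9.87-fold lower in NK1.1+ KO cells and 4.13-fold lower in NK1.1− KO cells. The remaining St8sia1 probe set was below the level on all arrays. NK1.1+ KO cells were 2.24-fold below NK1.1− KO cells (-1.16), a call that was lost with arrays centred on the median gene (-0.69) or on housekeeping genes (-0.18), with an offset of 32 (-0.43) and with the mean of its probe sets (-0.44).

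St8sia4, which extends polysialic acid on carriers such as NCAM, neuropilin-2 and the chemokine receptor CCR7, was bright in every group. Its brightest probe set, 1419186_a_at, read 3341 in control cells, 4210 in NK1.1− KO cells and 5195 in NK1.1+ KO cells, log2 differences of 0.33 and 0.64 above control that were under 2-fold. The second St8sia4 probe set, 1430391_a_at, read 42.0, 41.0 and 19.5 in the same order. The probe sets disagreed in NK1.1+ KO cells, where the second was 2.15-fold below control (-1.11), and the mean of both gave -0.23. Unlike those of St8sia1 and St8sia6, its bright probe set was not below control in either KO subset.

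St6gal1 makes the sialic acid linkage on N-linked chains that the lectin CD22 binds. It read 9707 in control cells, 5816 in NK1.1− KO cells and 2614 in NK1.1+ KO cells, by probe set 1420928_at. The values were lowest in NK1.1+ KO cells and highest in control cells. St6gal1 was 3.71-fold lower than control in NK1.1+ KO cells (log2 difference -1.89), a size that 11.2% of tested genes exceeded in either direction, and 1.67-fold lower in NK1.1− KO cells (-0.74), under the 2-fold rule. The NK1.1+ subset was 2.22-fold below the NK1.1− subset (-1.15), a call lost with the mean of both probe sets (-0.36) and after centring on the median gene (-0.68) or housekeeping genes (-0.18). The second probe set, 1420927_at, was above the level on the control array only, at 12.9, and adds little. St6gal1 is also used by B cells, so their markers are given beside it: Ms4a1 read 212, 76.7 and 108 and Cd79b 53.7, 26.0 and 24.5 in control, NK1.1− KO and NK1.1+ KO cells, and Cd79a and Pax5 were below the level on all 3. Over the whole B and plasma cell list 8 of 11 markers were measured on some array, with summed intensities of 388, 184 and 2492 in the same order, of which Jchain gave 2282 in NK1.1+ KO cells. Without Jchain the sums were 372, 168 and 210.3, highest in control cells. The part of B cells in the St6gal1 values was not tested.

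The St3gal genes, whose enzymes place sialic acid on galactose, lay on both sides of control. St3gal1, which caps the unbranched core 1 O-linked chain and so competes with Gcnt1 for it, read 101 in control cells, 55.5 in NK1.1− KO cells and 45.5 in NK1.1+ KO cells, by probe set 1418946_at. Both KO subsets were below control, 2.22-fold in NK1.1+ (log2 difference -1.15) and 1.82-fold in NK1.1− cells (-0.87). In NK1.1+ KO against control, 27.8% of genes differed by more than St3gal1 did. The second St3gal1 probe set, 1441216_at, stayed between 14.0 and 14.3 on all arrays, so the probe sets of this gene disagreed. Their mean gave -0.58 in the NK1.1+ subset, under 2-fold, as did an offset of 32 (-0.78) and a level of 54.0 (-0.91).

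St3gal6 sialylates chains that become selectin ligands. It read 187 in control cells, 367 in NK1.1− KO cells and 283 in NK1.1+ KO cells, by probe set 1449078_at. Its values were 1.96-fold above control in NK1.1− KO cells (log2 difference 0.97), just under the 2-fold rule, and 1.51-fold above in NK1.1+ KO cells (0.60). Probe set 1449079_s_at gave the same order, with 204, 323 and 270. The other 3 probe sets of St3gal6 did not exceed 11.7 on any array. St3gal4, a further enzyme of selectin ligand synthesis, was below the level throughout, at 7.55, 7.89 and 6.56 in control, NK1.1− KO and NK1.1+ KO cells, so no difference can be given for it.

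Gcnt1 encodes the core 2 branching enzyme that opens the O-linked chain to selectin ligand synthesis. It read 9.73 in control cells, 17.7 in NK1.1− KO cells and 31.5 in NK1.1+ KO cells, by probe set 1460431_at, so control cells were below the level and the KO subsets above it. Gcnt1 was at least 2.74-fold higher than control in NK1.1+ KO cells (log2 difference at least 1.46) and at least 1.54-fold above it in NK1.1− KO cells (at least 0.62). The values are dim, and the other Gcnt1 probe set, 1449538_a_at, stayed between 8.10 and 8.25 on the 3 arrays, below the level. For the NK1.1+ subset this call was lost with an offset of 32 added to every value (0.60) and with the mean of both probe sets (0.48). Raising the level to 54.0, the 75th percentile over the arrays, leaves no Gcnt1 value above it.

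Fut7, whose fucosyltransferase completes the selectin-binding sugar, read 5.44, 5.55 and 5.58 in control, NK1.1− KO and NK1.1+ KO cells, below the level in every group. Selplg read 2744, 2459 and 2361 by its single probe set, 1449127_at. The carrier protein's transcript was therefore abundant in all groups and, in the deposited values, differed by at most 1.16-fold from control.

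**Figure D2:**
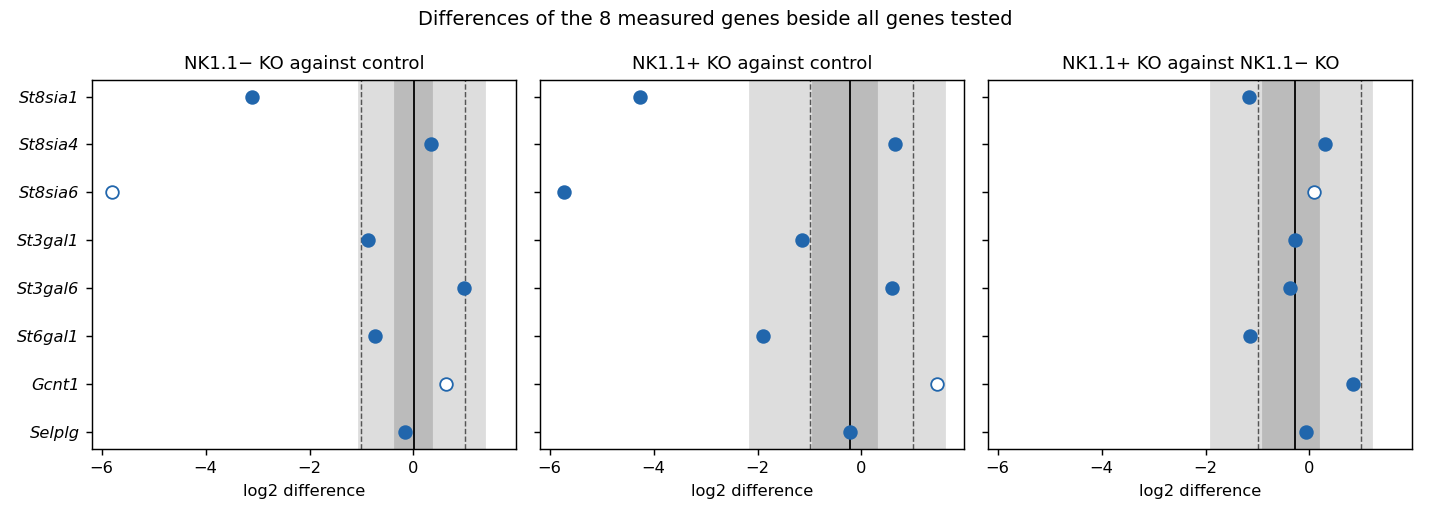
Log2 differences of the 8 measured genes (points, open where the value is a lower bound) in the 3 comparisons, with the central 90% of all tested genes in light grey, the central 50% in dark grey, their median as a line and 2-fold as dashed lines. St8sia1 and St8sia6 lie outside the light band in both comparisons with control, at -3.10 and -5.81 in NK1.1− KO and -4.26 and -5.72 in NK1.1+ KO cells.

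Scaling matters for the NK1.1+ KO array. Centring every array on the median of 8371 genes measured on all 3 moved the median of the genes tested in NK1.1+ KO against control from -0.22 to 0.23. The percentages of genes called higher and lower then became 17.8% and 14.0%. With 12 housekeeping genes as the reference they became 39.7% and 6.45%, and with quantile normalization 12.5% and 18.6%. Between the KO subsets the 6.26% higher and 21.7% lower became 14.0% and 10.5% with the median gene, 33.5% and 4.26% with housekeeping genes and 8.80% and 16.2% with quantile normalization. Relative to the median gene, NK1.1+ KO cells differed from control by -5.27 for St8sia6, -3.81 for St8sia1, -1.44 for St6gal1 and 1.91 for Gcnt1 on the log2 scale. St3gal1 was then under 2-fold (-0.70). St8sia4 (1.09) and St3gal6 (1.05) were then just past 2-fold, and Selplg changed sign (0.23). With housekeeping genes as the reference, St8sia4 was at 1.63, St3gal6 at 1.59 and Selplg at 0.78. St8sia1 and St8sia6 remained called lower in both KO subsets under each of the 9 alternatives run on values, and both stayed past 3-fold as reported. In NK1.1+ KO cells St6gal1 lost its call with housekeeping genes as the reference (-0.90).

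**Figure D3:**
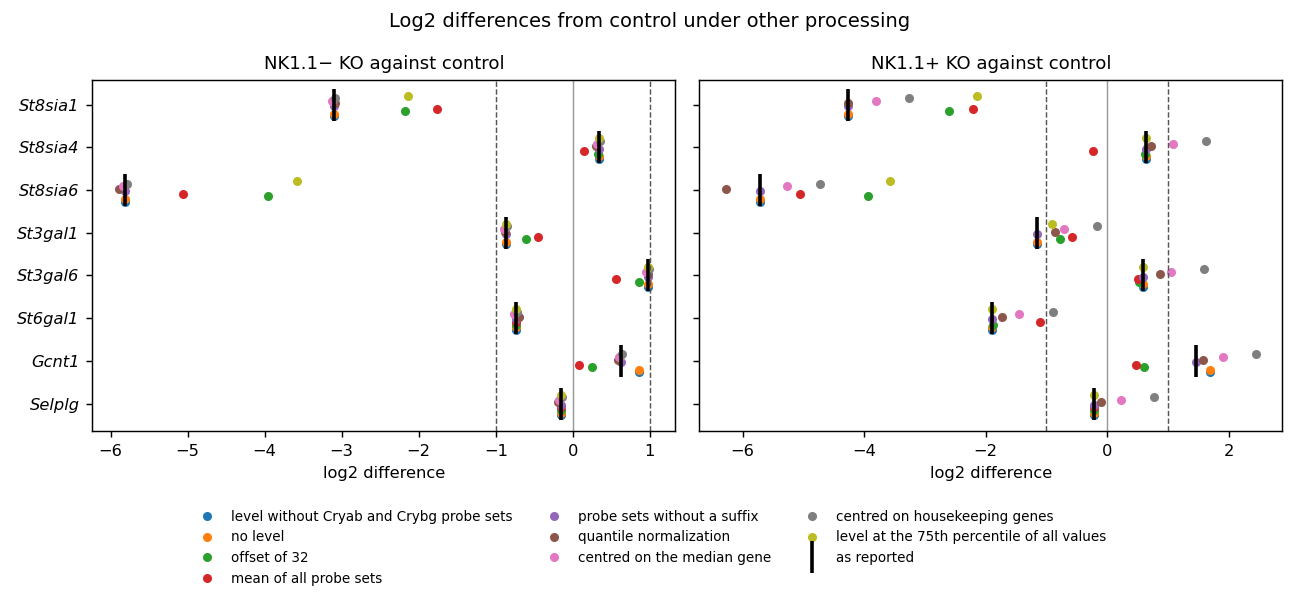
Log2 differences from control of the 8 measured genes as reported (black bars) and under each alternative (coloured points), with 2-fold as dashed lines. St8sia1 and St8sia6 stay left of the 2-fold line under all alternatives, whereas St3gal1 in NK1.1+ KO cells ranges from -1.15 to -0.16.

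Around these members, 11 lists of 126 names covered the rest of the pathway, of which 120 were on the array as single-symbol genes. Their counts stand beside the shares over all genes, 8.21% higher and 5.63% lower for the NK1.1− subset and 9.66% higher and 23.4% lower for the NK1.1+ subset. For the latter, the fucose, O-glycan and N-glycan counts of lower genes given here are near the share over all genes. Of the other 13 sialyltransferases, 8 were tested in NK1.1− KO against control and 0 were called in either direction, with a median log2 difference of -0.0066. The NK1.1+ subset had 2 of 9 called higher and 1 lower. St6galnac3, which adds sialic acid to O-linked chains, read 35.3, 35.3 and 124 in control, NK1.1− KO and NK1.1+ KO cells. St3gal5, which makes the GM3 that St8sia1 uses, read 13.7, 17.4 and 40.9. St3gal3 was at least 2.62-fold lower in NK1.1+ KO cells, at 8.39 against 30.1. Each of these 3 rests on 1 measured probe set.

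Genes of sialic acid supply included 1 of 8 called lower in NK1.1− KO cells, Cmah, whose product hydroxylates sialic acid, at 359 against 747 (2.08-fold). The 5 measured probe sets of Cmah ranged from -1.37 to -0.24 on the log2 scale. In NK1.1+ KO against control they ranged from -3.67 to -0.070, and by its brightest probe set (-0.22) Cmah was not called. For the NK1.1+ subset 3 of 8 were called lower, Nans (2.61-fold), Slc35a1 (2.44-fold) and Gne (2.01-fold), the enzymes and transporter that make activated sialic acid and carry it into the Golgi. The other probe set differed by 0.56 for Nans and 0.14 for Slc35a1 on the log2 scale, in the opposite direction. That of Gne differed by -0.34. Centring on the median gene, a shift of -0.31 for the NK1.1+ KO and 0.14 for the control array, leaves Nans, Slc35a1 and Gne under 2-fold. Of the sialidases, which remove sialic acid, 0 of 2 were called in the NK1.1− subset and 1 of 2 lower in the NK1.1+ subset, Neu1 by at least 2.29-fold.

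On the list for the ganglioside pathway that St8sia1 belongs to, 3 of 8 genes were called lower and 1 higher in NK1.1− KO cells. The median log2 difference was -0.57. Cerk, among the lower genes in both KO subsets, encodes ceramide kinase, which makes no ganglioside. Ugcg, which starts glycosphingolipid synthesis, read 298 against 712 in control, and Hexa, a lysosomal ganglioside hydrolase, 298 against 713. The 4 measured probe sets of Ugcg ranged from -1.26 to -0.39 on the log2 scale. B4galt5, a lactosylceramide synthase, was 2.73-fold higher. For the NK1.1+ subset 5 of 9 were called lower and 1 higher, with a median of -1.1006. The higher gene was B4galt6, a further lactosylceramide synthase, which read 5.18, 7.26 and 105 in control, NK1.1− KO and NK1.1+ KO cells, at least 9.12-fold higher, while its other measured probe set differed by 0.41 on the log2 scale. B3galt4, which extends gangliosides, was 3.82-fold lower, and Glb1, a lysosomal galactosidase gene, 3.61-fold lower. B4galnt1, which acts on GM3 and GD3, read 695, 580 and 232 in control, NK1.1− KO and NK1.1+ KO cells, and its other measured probe set differed between the KO arrays by -0.12 on the log2 scale.

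O-glycan enzymes were called in both directions. The NK1.1− subset had 2 of 18 called higher and 3 lower, with Galnt11 at 43.2 against 140 (3.25-fold lower), Galnt6 at 212 against 601 (2.84-fold lower, with -0.19 by another probe set) and Galnt3 at least 2.89-fold higher. These Galnt genes encode enzymes that start O-linked chains. The NK1.1+ subset had 1 of 18 called higher and 5 lower, led by Galnt12 at 47.8 against 349 (7.30-fold). Fucose genes included 0 of 10 called in NK1.1− KO cells, and 3 of 11 called lower in NK1.1+ KO cells, among them the Golgi GDP-fucose transporter gene Slc35c1 at 22.1 against 77.5. The other leukocyte fucosyltransferase gene of selectin ligands, Fut4, was below the level on all arrays, at 7.92 to 8.38. The sulfotransferase list had 2 of 6 called higher for the NK1.1− subset. Tpst2, one of the enzymes that sulfate tyrosines such as those of PSGL-1, read 121, 244 and 145 in control, NK1.1− KO and NK1.1+ KO cells, and Chst2 was measured on the NK1.1− KO array only, at 23.2. For the NK1.1+ subset 0 of 4 were called. Of N-glycan branching genes 1 of 10 was called lower in NK1.1− KO cells, Mgat4a at 36.0 against 79.0, and in NK1.1+ KO cells 2 of 10 were lower and 1 higher.

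Of selectins and their other carriers, 4 of 13 on the array were measured, with 1 called higher and 1 lower in each KO subset. Cd44, an E-selectin ligand carrier, read 568, 2056 and 2444 in control, NK1.1− KO and NK1.1+ KO cells, 3.62-fold and 4.30-fold higher than control. Spn, which encodes the O-glycosylated carrier CD43, read 3862, 6571 and 6932 in the same order, under 2-fold. In NK1.1+ KO cells its other probe set went the opposite way, with a log2 difference of -0.51 from control. Cd24a was 3.95-fold lower in NK1.1− KO and 3.62-fold lower in NK1.1+ KO cells. Of 7 siglec genes on the array only Cd22, whose product binds the linkage made by St6gal1, was measured, at 82.7, 359 and 182 in control, NK1.1− KO and NK1.1+ KO cells. Cd22 was 4.34-fold higher than control in NK1.1− KO cells and 2.20-fold higher in NK1.1+ KO cells. Among the listed carriers of polysialic acid, 1 of 3 was called higher and 1 lower in the NK1.1− subset. In the NK1.1+ subset 2 of 4 were called higher, Ncam1 and Cadm1 (2.20-fold), and 1 lower. There, Ncam1 read 6.42, 6.45 and 211, at least 18.4-fold higher in the NK1.1+ KO subset, and Ccr7 1101, 67.1 and 6.01, lower in both KO subsets. Ncam1 and Ccr7 each rest on 1 measured probe set. Nrp2 was at least 2.61-fold higher in NK1.1− KO cells.

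**Figure D4:**
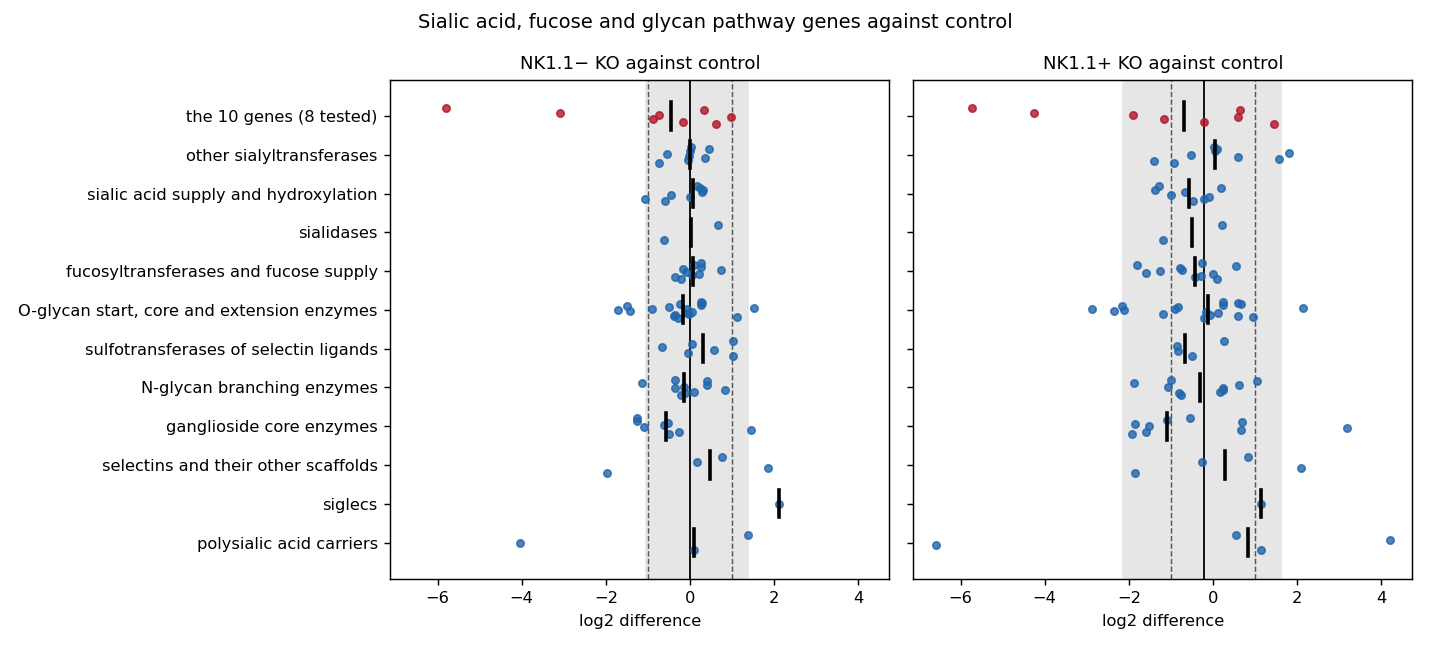
Log2 differences from control of every tested gene (points) of the 10 genes and of the 11 pathway lists, with the median of each list as a black bar, the central 90% of all genes in grey, their median as a line and 2-fold as dashed lines. The 8 tested sialyltransferases outside the 10 genes lie within 2-fold in NK1.1− KO cells, while St8sia6 and St8sia1 lie at -5.81 and -3.10.

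Several lists of markers set for other cell types differed between the arrays, not all in the same direction. Genes on them such as Gzma, Prf1, Eomes, Ccr9 and Pecam1 are not restricted to the type they are listed under. Of the 14 markers of monocytes, macrophages and granulocytes on the array, 5, 6 and 9 were measured in control, NK1.1− KO and NK1.1+ KO cells, with summed intensities of 248, 336 and 9620 over the 9 measured anywhere. Csf1r gave 7666 of the last sum, and without it the sums were 217, 281 and 1954. The 3 measured probe sets of Csf1r ranged from 1.64 to 7.97 on the log2 scale in NK1.1+ KO against control. Itgam, Cd14, Csf3r, C1qa and C1qc were below the level on every array. NK cell markers summed to 860.0 in control, 22318 in NK1.1− KO and 34155 in NK1.1+ KO cells over 6 of 8 genes, with Ncr1 and Klra1 below the level throughout. Most of this was Gzma, and without it the sums were 702, 2432 and 2300, so the order of the KO subsets turned. Eomes set that order, at 593, 2085 and 734, while Klre1, Klrk1, Prf1 and Klra8 were each highest in NK1.1+ KO cells. A probe set with the symbols Klrb1b and Klrb1c, the latter on the NK cell list, read 7.09, 52.7 and 1618. Over 6 of 11 dendritic cell markers the sums were 818, 625 and 1807 in the same order (493, 336 and 289 without H2-Aa), over 5 of 6 CD4 and regulatory T cell markers 1948, 1855 and 277, and over 3 of 8 endothelial and fibroblast markers 62.2, 21.4 and 194. The 4 measured probe sets of H2-Aa ranged from 0.47 to 2.22 on the log2 scale in NK1.1+ KO against control. None of 5 erythroid and platelet markers on the array was measured. In NK1.1+ KO cells 10 of 12 T cell markers and 6 of 12 housekeeping genes were called lower and 0 of either higher. The part of other cells in the values of Gcnt1, St6galnac3, St3gal5 and the other genes higher on that array was not tested. In NK1.1− KO cells, where St8sia6 and St8sia1 were also low, 0 of 6 tested monocyte, macrophage and granulocyte markers and 0 of 12 housekeeping genes were called, while T cell markers were called lower for 2 of 12 genes and higher for 0. In the same cells 4 of 5 genes of the NK cell list were called higher, Gzma, Klre1, Eomes and Prf1. B and plasma cell markers were called lower for 2 of 7 genes, and CD4 and regulatory T cell markers for 2 of 5. Of 6 dendritic cell markers 1 was higher, Itgax by at least 16.3-fold, and 1 lower, Ccr9, and the 1 tested endothelial and fibroblast marker, Pecam1, was lower. Their part in the low St8sia6 and St8sia1 values was not tested.

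The genes whose 2 log2 differences from control came closest to those of St8sia1, among 9116 genes measured on at least 2 arrays, were Ccr9, Ramp1 and Dapl1, with a larger deviation of 0.11, 0.12 and 0.13. Ccr9, which encodes a gut-homing chemokine receptor and whose probe sets disagreed (-0.070 to -2.99 in the NK1.1− subset), read 293, 36.9 and 14.9 in control, NK1.1− KO and NK1.1+ KO cells. For St8sia6 the same rule gave Ccr7, Tdrp and Als2cl. The St8sia6 value in NK1.1− KO cells and the Ccr7 and Tdrp values in NK1.1+ KO cells lie below the level, so these deviations rest on bounds and their order is not settled. Such likeness rests on 3 arrays and is a description only.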

How the data were processed

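Single Affymetrix mouse 430 2.0 arrays of 3 groups were used, with groups taken from the sample titles. The deposited table gives probe set intensity on a linear scale for 45101 probe sets, 64 of them array controls. GCRMA, version 1.1.3, is listed in the submitters' processing notes without settings. From the deposited intensity, log2 was taken and differences were computed across all genes with Python 3.11.15, numpy 2.4.6 and pandas 2.3.3. Symbols came from GEO's platform annotation, and 932 probe sets with several symbols were named for no gene. The 148 probe sets behind the level included Cryab, Crybg1 and Crybg2, which are not restricted to the lens. Without them, an alternative chosen after seeing the data, the level was 9.57. The precision is limited by the number of arrays. The members and lists were chosen with earlier results of these data known. Genes named besides the 10 members were up to 3 of each list with the largest called difference. Any other was chosen after its values were seen (Fut4, Spn, B4galnt1, Cerk and the markers). For each member spanning at least 4-fold the 3 genes nearest in pattern were also named. Alternatives were 4 levels or offsets, 2 choices of probe set, 3 normalizations and a 3-fold rule. No protein comparison was made.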

Additional observations from a re-analysis of the deposited data

How the results depend on the processing

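Member counts kept within 1.5 times of those reported in 45 of 60 cases, and member log2 differences kept their call in 186 of 210, with 16 falling under 2-fold and 8 passing it. In NK1.1− KO against control every alternative gave counts within 1.5 times of those reported. The changed counts all concern the NK1.1+ KO array. Against control, 0 members were called higher with a level at the 75th percentile, an offset of 32, averaged probe sets or a 3-fold rule, and 3 with arrays centred on the median gene or on housekeeping genes, while 2 were lower with the housekeeping reference. Against NK1.1− KO cells, 1 member was called higher after centring on the median gene and 3 after centring on housekeeping genes. There, 1 was lower with a level at the 75th percentile or an offset of 32, and 0 when probe sets were averaged, with either centring or with a 3-fold rule. No called member difference changed sign. Over its alternatives the log2 difference in NK1.1− KO cells ranged from -5.89 to -3.58 for St8sia6 and from -3.12 to -1.77 for St8sia1, and in NK1.1+ KO cells from -6.28 to -3.58 and from -4.26 to -2.13. The cause of these shifts was not tested. List counts moved by over 1.5 times in 148 of 660 cases. With 1 array per group no replicate could be left out and no replicate block exists. Signal below the level left St3gal4 and Fut7 without a difference, and the Gcnt1 differences from control are bounds.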
